A study of Mus musculus with 24 samples.

Results

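The total leukocyte infiltrate of the pancreas was compared with the islet-specific T cells sorted from the same organ, in mice whose islet lesion the labels call aggressive. By their labels, the members are the 3 arrays of total pancreatic infiltrate and the 2 arrays of pancreatic T cells from B6g7 mice, 5 of the 24 arrays in the series. B6g7 mice carry the C57Bl/6 genome with the H2g7 haplotype of the major histocompatibility complex (MHC), and both groups come from mice transgenic for the BDC2.5 T cell receptor, which makes most CD4 T cells recognise an antigen of pancreatic beta cells. The infiltrate arrays hold viable CD45+ cells from mice aged 25, 28 and 24 days (arrays 1, 2 and 3). The T cell arrays hold viable CD45+ CD4+ cells with high staining for the BDC2.5 clonotype, from mice aged 25 and 22 days (arrays 1 and 2). The infiltrate sort therefore also takes in the cells of the T cell sort, and the comparison addresses what the other leukocytes add. The infiltrate labels record no treatment, the T cell labels name none, and RNA of both groups was amplified in 2 rounds. How many mice gave each array is not stated in the labels. A p-value therefore measures the spread between arrays within groups, which may be technical. That spread is pooled over all 10 groups of the series and not taken from these 5 arrays alone. The other B6g7 arrays used here hold pancreatic lymph node T cells from BDC2.5 mice aged 25 and 22 days, natural killer (NK) cells sorted from spleen as AsialoGM1+ from mice aged 6 and 3 weeks, and spleen leukocytes (2 arrays each). The labels give the NK cell mice no transgene, and name neither a transgene nor an age for the spleens. On the NOD background, where the infiltrate is labelled benign, BDC2.5 mice gave infiltrate at 25 days (3 arrays) and pancreatic T cells at 24, 24 and 25 days. The fit also holds NOD lymph node T cells from BDC2.5 mice at 24, 22 and 25 days, and NOD NK cells and spleen with no age named, of which 1 NK cell array is described as BDC2.5.

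CD45 is carried by all leukocytes, so a CD45+ sort of inflamed pancreas can take in T cells, B cells, macrophages, dendritic cells, granulocytes and NK cells. CD4 T cells are known to see antigen as peptides held by MHC class II molecules, which mouse B cells, macrophages and dendritic cells carry and resting mouse T cells largely lack. NK cells and cytotoxic T cells kill through granules of perforin and granzymes, and macrophages are known as a source of interleukin-1 (IL-1) and of chemokines that draw further leukocytes.

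The deposited values are probe set intensities, taken here to log2, and all levels and differences below are on that scale. Median intensity per array lay between 35.1 and 39.1, and the number of arrays limits the precision. The 3 infiltrate arrays correlated at 0.952 to 0.980 with each other over all probe sets. T cell array 2 correlated at 0.925 to 0.952 with the infiltrate arrays, and at 0.923 with T cell array 1, so it lay closer to each infiltrate array than to the other array of its group. T cell array 1 held liver and acinar transcripts, with albumin (Alb) at 12.06 and the pancreatic protease Prss2 at 9.21, against 4.57 and 4.48 in T cell array 2. Infiltrate arrays 1 and 2 also held albumin, at 10.58 and 10.46, against 4.19 in infiltrate array 3. The serial codes in the labels, whose meaning is not given, put T cell array 1 in a run of 4 arrays, and all 4 had albumin between 8.40 and 12.71. Only 2 arrays outside that run, infiltrate arrays 1 and 2, exceeded 4.90. Because of these arrays, counts are also given without T cell array 1 and without all 3 arrays that hold liver transcripts, choices made after seeing the data. The first leaves T cell array 2 alone in its group, and the second compares infiltrate array 3 alone with T cell array 2 alone. Their p-values then assume that a lone array varies as the arrays of the other groups do, so they do not test the spread within the group that holds it.

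Further measures moved with the groups. Splitting the serial codes at gaps above 20 gave 0 runs shared by the infiltrate and T cell arrays. Run and cell population therefore cannot be told apart within B6g7. The Gapdh 3′ probe set exceeded the 5′ one by 2.56, 3.16 and 3.15 in the infiltrate arrays and by 3.72 and 3.63 in the T cell arrays. The submitters' processing notes name RMA, a summary method for such arrays, for all 3 infiltrate arrays and for neither T cell array, so processing as recorded and cell population cannot be told apart within B6g7. On NOD the notes run the other way, with RMA named for all 3 T cell arrays and for no infiltrate array. In the 5 arrays, 33 genes not expected in leukocytes or pancreas had a median level of 4.77, and 90% of their values were at or below 6.37. A T cell level under 6.37 is therefore in the range of absent transcripts, and a fold against it is given as a lower bound.

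Most of the probe sets that passed were higher in the infiltrate than in the T cells. Of 12422 probe sets, 337 passed limma's test at an adjusted p under 0.05 (2.71%). Of these, 290 were higher in the infiltrate (2.33%) and 47 lower (0.378%). With 1 probe set per gene, 214 of 8251 genes were higher (2.59%) and 25 lower (0.303%), and none of these 239 genes had overlapping values between the groups. The groups did not overlap for 29% of all probe sets, so separation alone is common. Of the 214 higher genes, 88 belong to one of 34 gene lists used here. The lists were chosen with earlier results of these data known. The share of list genes among all 8251 is not given here, so the 88 cannot be weighed against it. Among the higher genes the median difference was 1.70 and 82 exceeded 2, while among the lower genes the median was -0.85 and 1 gene was below -2. Over all genes the median was -0.03, and 45.9% of genes were above 0. Without T cell array 1 the number of passing probe sets was 102, of which 101 were among the 337, and without the 3 arrays with liver transcripts it was 67, of which 65 were. All 337 kept their direction in both. For the 239 genes without overlap this was fixed in advance, as leaving out arrays cannot reverse such a difference. In bulk RNA such as this, more cells of a type and more RNA per cell cannot be told apart.

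**Figure D1:**
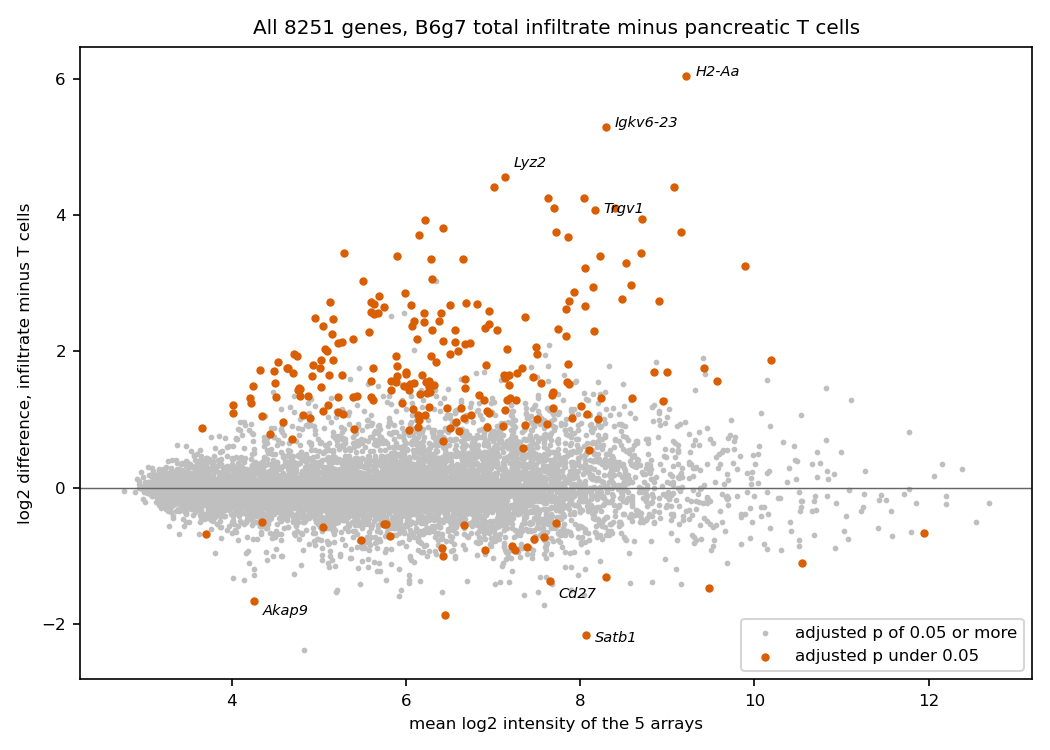
Each point is 1 of the 8251 genes, with its mean log2 intensity over the 5 arrays on the x axis and the log2 difference, B6g7 total infiltrate minus B6g7 pancreatic T cells, on the y axis. Orange points passed limma's test at an adjusted p under 0.05, and the 214 higher ones reach 6.05 while the 25 lower ones reach -2.17.

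The list of MHC class II genes had the highest median difference of the lists (2.39), and the gene with the largest rise. H2-Aa, the alpha chain of the I-A molecule, had 12.19, 11.67 and 11.05 in the infiltrate arrays, against 5.54 and 5.64 in the T cell arrays. The T cell values lay in the range of absent transcripts, and no infiltrate array came near them. The difference was 6.05 (SE 0.36, adjusted p = 1.8e-08 by limma), or at least 66.4-fold. H2-Ab1, the I-A beta chain, had 9.84, 9.60 and 8.55 in the infiltrate, against 5.56 and 5.73 in the T cells (difference 3.68, SE 0.35, adjusted p = 4.49e-06 by limma). H2-Eb1, the beta chain of the I-E molecule, had 11.45, 10.85 and 10.23 in the infiltrate, against 6.09 and 6.77 in the T cells (difference 4.41, SE 0.39, adjusted p = 1.66e-06 by limma). For all 3 genes the groups were clearly apart, infiltrate array 1 was the highest and infiltrate array 3 the lowest of its group. Cd74, the invariant chain that escorts class II molecules, followed the same order with 10.65, 9.14 and 8.24 in the infiltrate, against 5.70 and 6.53 in the T cells (difference 3.23, SE 0.56, adjusted p = 0.00234 by limma). Its call was lost without T cell array 1 (adjusted p = 0.0982 by limma).

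Of 14 measured members of the class II list, 8 were higher past the threshold and none lower, and the list's median was 2.39. With T cell array 1 left out, 7 were higher, and without the 3 arrays with liver transcripts, 4 were. H2-Ea, the I-E alpha chain, which mice of the H2g7 haplotype are known not to transcribe, was looked up after the other values were seen. It had 3.85, 3.50 and 3.57 in the infiltrate and 3.73 and 3.37 in the T cells, so the groups overlapped at the level of absent transcripts.

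The promoters of the 2 class II genes with the largest differences are shown because both hold the inverted CCAAT letters (CTGATTGG, in capitals) of the Y element known from class II promoters. The stretches run from 110 bases before the annotated start, 5′ to 3′ on the gene's strand, and come from RefSeq on GRCm38.p6. H2-Aa lies at chr17:34287814-34287933 on the minus strand and H2-Eb1 at chr17:34305757-34305876 on the plus strand.
H2-Aa: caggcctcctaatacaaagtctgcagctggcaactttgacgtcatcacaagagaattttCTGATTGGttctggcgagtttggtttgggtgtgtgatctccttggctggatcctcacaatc
H2-Eb1: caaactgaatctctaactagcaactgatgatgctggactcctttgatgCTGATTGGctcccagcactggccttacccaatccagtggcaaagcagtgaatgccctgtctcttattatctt
CTGATTGG, searched on both strands of the 300 bases around the start, was in 4 of the 10 list members with a promoter used here and in 4.10% of all 32851 promoters. The other 2 members that hold it, H2-Oa and H2-Eb2, named because they do, did not pass the test, with differences of 1.07 (adjusted p = 0.138 by limma) and -0.20 (adjusted p = 0.528 by limma). The list members not searched include H2-Ab1 and Cd74, which both passed the test, while the 4.10% covers all promoters. The 4 of 10 therefore counts only the members searched, and was not tested against that share. The match is a description of letters and not of a bound factor.

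B cell genes formed the list with the largest share of higher members. Of 20 measured, 14 were higher past the threshold and none lower, and the median was 1.83. All 20 were above 0, against 45.9% of all genes. Blk, a Src-family kinase of B cells, had 8.88, 8.84 and 8.61 in the infiltrate, against 4.31 and 4.40 in the T cells. The arrays within each group were close together and the groups far apart (difference 4.42, SE 0.28, at least 21.4-fold, adjusted p = 3.72e-08 by limma). Cd79b, a signalling chain of the B cell receptor, had 10.31, 9.73 and 9.19 in the infiltrate, against 5.38 and 5.60 in the T cells (difference 4.26, SE 0.32, adjusted p = 2.1e-07 by limma). Ly6d, a surface protein of the B lineage, had 9.91, 8.91 and 8.84 in the infiltrate, against 5.42 and 5.50 in the T cells (difference 3.76, SE 0.30, adjusted p = 4.93e-07 by limma). A further probe set of Ly6d was at 0.07 (adjusted p = 0.916 by limma), and that of Blk at 1.63 (adjusted p = 0.0167 by limma). Fcrla, an Fc receptor-like protein of B cells outside the list, was higher by 3.45 (SE 0.31, adjusted p = 1.73e-06 by limma). These 4 genes passed in every alternative run, including those that left out any 1 of the 5 arrays. Cd24a, which B cells share with other young leukocytes, was higher by 3.40 (SE 0.67, adjusted p = 0.00716 by limma) and lost its call without T cell array 1 (0.104) or T cell array 2 (0.0538), adjusted p by limma.

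Cd79a, the partner chain of Cd79b, did not pass, with 7.11, 6.67 and 6.32 in the infiltrate and 5.93 and 6.13 in the T cells (difference 0.67, SE 0.27, adjusted p = 0.281 by limma). Its groups did not overlap, but infiltrate array 3 was close to the T cells. The same gene read 10.51 on average in B6g7 spleen. In a fit lacking T cell array 1, 8 of the 20 B cell genes were higher past the threshold, and 5 were without the 3 arrays with liver transcripts. The mean level of the list was 7.12 to 7.54 in the infiltrate arrays and 5.33 to 5.41 in the T cell arrays, against 8.92 in B6g7 spleen.

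Immunoglobulin segments were higher in part. Of 25 measured, 8 were higher past the threshold and none lower, with a median of 0.75. Igkv6-23, a kappa light chain variable segment, had 10.46, 10.69 and 10.11 in the infiltrate, against 4.90 and 5.36 in the T cells. The groups were far apart, and the difference of 5.29 (SE 0.26, adjusted p = 2.19e-09 by limma) was the largest of any gene outside the class II list. Ighm, the mu heavy chain, was high in both groups, with 11.64, 10.88 and 10.31 in the infiltrate and 9.13 and 9.0 in the T cells (difference 1.88, SE 0.40, adjusted p = 0.0116 by limma). The call was lost without infiltrate array 1 (0.0646), T cell array 1 (0.130) or T cell array 2 (0.0771), adjusted p by limma. The annotation gives the name Ighm to 15 further probe sets, of which 1 passed (2.43) and the others lay between -0.29 and 1.0. Variable segments are near copies of one another, so which segment a probe set measures is uncertain. None of 5 plasma cell genes passed (median 0.33). Without T cell array 1, 3 of the 25 segments were higher past the threshold, and 1 was without the 3 arrays with liver transcripts.

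Macrophage and monocyte genes were higher in 11 of 25 measured members and lower in none, with a median of 1.15. Lyz2, the lysozyme of macrophages, had 9.38, 7.97 and 9.54 in the infiltrate, against 4.89 and 3.91 in the T cells. The spread within both groups was wide but they did not overlap (difference 4.56, SE 0.98, adjusted p = 0.0139 by limma). The call was lost without T cell array 1 (0.0952), T cell array 2 (0.112), infiltrate array 1 (0.0609) or infiltrate array 3 (0.0525), all adjusted p by limma. Mpeg1, a pore-forming protein of macrophages, was steadier, with 10.25, 9.84 and 10.15 in the infiltrate, against 6.60 and 6.65 in the T cells (difference 3.45, SE 0.33, adjusted p = 4.64e-06 by limma). Ccr2, the chemokine receptor of inflammatory monocytes, had 7.43, 6.78 and 7.20 in the infiltrate, against 4.37 and 4.54 in the T cells (difference 2.68, SE 0.27, adjusted p = 6.87e-06 by limma). Mpeg1 and Ccr2 passed in every alternative run.

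Other macrophage markers passed with wider errors. Csf1r, the receptor for the macrophage growth factor M-CSF, had 8.38, 8.15 and 8.58 in the infiltrate, against 5.85 and 5.88 in the T cells (difference 2.5, SE 0.44, adjusted p = 0.00288 by limma). Adgre1, the F4/80 antigen, differed by 1.78 (SE 0.36, adjusted p = 0.00882 by limma), Cd68 by 2.32 (SE 0.43, adjusted p = 0.0048 by limma) and C1qb, a chain of complement C1q, by 2.58 (SE 0.66, adjusted p = 0.0448 by limma). C1qb had 7.55, 6.63 and 5.71 in the infiltrate and 4.22 and 3.89 in the T cells, so infiltrate array 3 was the lowest. Its call was also lost without infiltrate array 1 (0.200), infiltrate array 2 (0.107) or T cell array 2 (0.171), adjusted p by limma. With T cell array 1 left out, 2 of the 25 macrophage genes were higher past the threshold, with Csf1r, Adgre1, Cd68 and C1qb at adjusted p of 0.0578, 0.152, 0.174 and 0.238 by limma. Also 2 were without the 3 arrays with liver transcripts. A weaker probe set of Csf1r had the opposite sign (-0.71, adjusted p = 0.326 by limma), and further probe sets of Mpeg1, Adgre1 and Cd68 were at -0.01, -0.02 and 0.03. Those of Lyz2 and C1qb were at 0.83 and 0.67 and did not pass.

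Dendritic cell genes were higher in 5 of 17 measured members, with none lower and a median of 0.27. The 4 with the largest differences were Cd83 (2.37), Irf8 (2.33), Tcf4 (2.28) and Cd40 (1.66), of which B cells and macrophages also express several. Tcf4, a transcription factor of plasmacytoid dendritic cells, had 6.48, 6.40 and 6.57 in the infiltrate, against 4.22 and 4.18 in the T cells, without overlap (SE 0.27, adjusted p = 3.82e-05 by limma). Itgax, the CD11c integrin of dendritic cells, had 6.28, 6.94 and 7.31 in the infiltrate and 4.94 and 5.65 in the T cells (difference 1.55, SE 0.36, adjusted p = 0.0239 by limma). Its call was lost without T cell array 1 (0.395), infiltrate array 2 (0.0732) or infiltrate array 3 (0.0970), adjusted p by limma. Another probe set of Cd83 was at -0.14. In a fit lacking T cell array 1, 4 of the 17 genes were higher past the threshold, and 1 was without the 3 arrays with liver transcripts.

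Granulocyte genes were higher in 2 of 18 members (median 0.18), Chil3 by 3.36 (SE 0.86, adjusted p = 0.0452 by limma) and Fpr2, a formyl peptide receptor, by 1.96 (SE 0.45, adjusted p = 0.0209 by limma). Chil3 lost its call without any 1 of the 5 arrays (adjusted p of 0.0754 to 0.370 by limma). Fpr2 lost its call without any 1 array but infiltrate array 2 (adjusted p of 0.0668 to 0.232 by limma). S100a8, a calcium-binding protein of neutrophils, had 7.54, 7.52 and 7.58 in the infiltrate, against 4.56 and 4.47 in the T cells. The groups were far apart, but the error shared over all 10 groups was wide for this gene (difference 3.03, SE 1.34, adjusted p = 0.336 by limma). With only the compared groups in the fit it passed (difference 3.03, adjusted p = 0.00119 by limma). That fit gave a call to 1 named gene that lacked it, and took it from 39 of the 85 that had it. Among the 39 were Cd74 (0.0953), Gzmb (0.0529), Ccl5 (0.0832), Cd68 (0.0838), Prf1 (0.145) and Ighm (0.0866), adjusted p by limma. No mast cell or basophil gene of 13 passed (median -0.01).

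**Figure D2:**
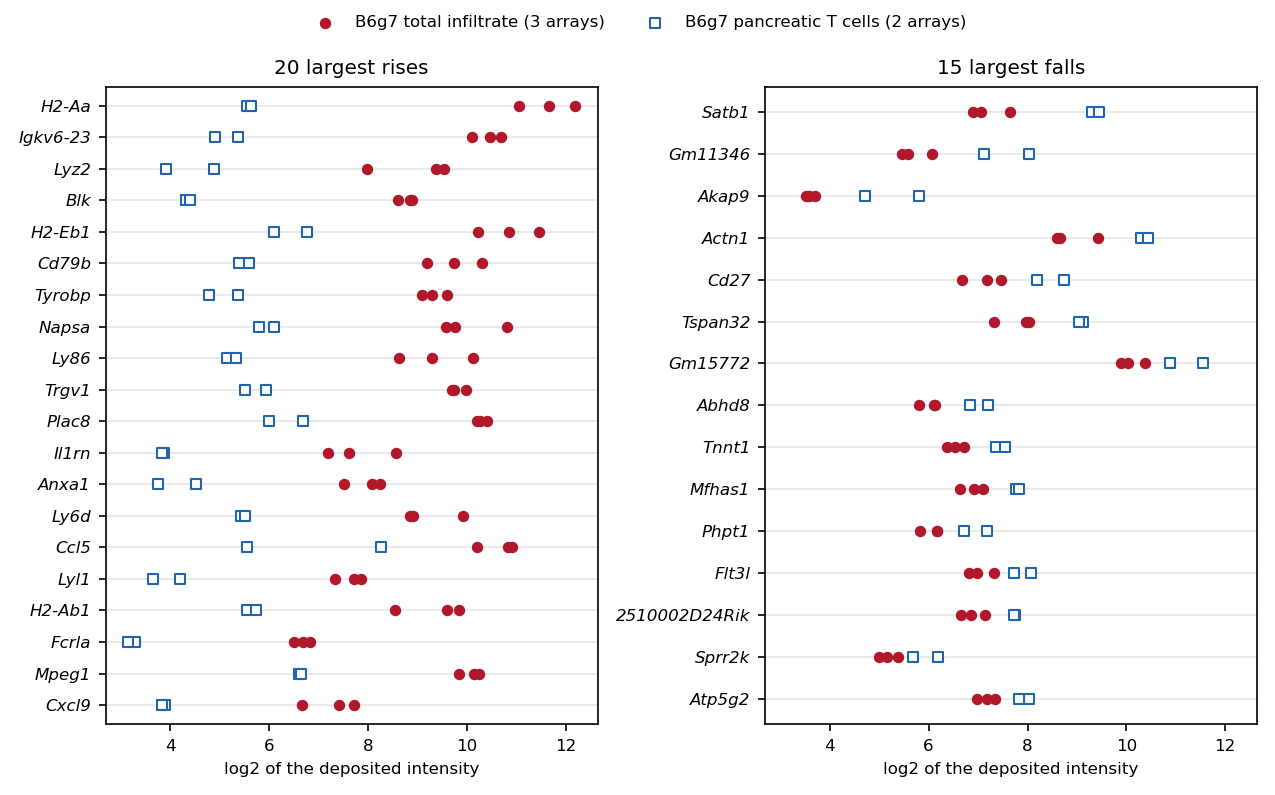
Log2 intensity in each array (x axis) for the 20 genes with the largest rises and the 15 with the largest falls among genes past the threshold with no overlap between groups. Filled red circles are the 3 B6g7 infiltrate arrays and open blue squares the 2 B6g7 T cell arrays, and H2-Aa runs from 11.05 to 12.19 in the infiltrate against 5.54 and 5.64 in the T cells.

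Several of the largest rises belong to no list. Ly86, the partner of the RP105 receptor of B cells and macrophages, had 9.29, 8.62 and 10.12 in the infiltrate, against 5.15 and 5.33 in the T cells (difference 4.10, SE 0.32, adjusted p = 3.09e-07 by limma). Napsa, an aspartic protease, was also higher by 4.10 (SE 0.45, adjusted p = 2.01e-05 by limma), and the small cysteine-rich protein Plac8 by 3.95 (SE 0.28, adjusted p = 1.26e-07 by limma). Anxa1, an annexin, was higher by 3.82 (SE 0.48, adjusted p = 1.11e-04 by limma) and Lyl1, a transcription factor of blood cells, by 3.71 (SE 0.51, adjusted p = 2.34e-04 by limma). The groups were without overlap for all 5. Further probe sets of Anxa1 were at 2.86, which passed, and 0.49, which did not. That of Lyl1 was at 0.98 and did not pass. Without the 3 arrays with liver transcripts, Anxa1 (0.0685) and Lyl1 (0.224) lost their calls, adjusted p by limma.

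NK cell genes were higher in 9 of 21 measured members and lower in none, with a median of 0.83. Tyrobp, the DAP12 adaptor of activating receptors on NK and myeloid cells, had 9.60, 9.30 and 9.09 in the infiltrate, against 5.37 and 4.78 in the T cells (difference 4.25, SE 0.55, adjusted p = 1.49e-04 by limma). Klrg1, an inhibitory lectin-like receptor, had 7.24, 7.70 and 7.65 in the infiltrate, against 4.03 and 4.90 in the T cells (difference 3.06, SE 0.36, adjusted p = 4.62e-05 by limma). Klra3, a Ly49 receptor, had 6.82, 6.91 and 6.72 in the infiltrate, against 3.98 and 4.01 in the T cells (difference 2.82, SE 0.33, adjusted p = 3.83e-05 by limma). The T cell values of all 3 genes were in the range of absent transcripts and the infiltrate values were close together. Cd244a, the 2B4 receptor, was higher by 2.49 (SE 0.27, adjusted p = 2.12e-05 by limma), with every value below 6.37, in the range of absent transcripts. Klrd1, the CD94 chain, was higher by 2.41 (SE 0.34, adjusted p = 3.51e-04 by limma), and Klrk1, the NKG2D receptor, by 1.40 (SE 0.23, adjusted p = 0.00177 by limma).

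Ncr1, the NKp46 receptor that marks mouse NK cells, did not pass. It had 4.41, 3.98 and 4.90 in the infiltrate and 3.66 and 3.49 in the T cells, all in the range of absent transcripts (difference 0.85, SE 0.30, adjusted p = 0.190 by limma), and read 5.28 on average in sorted B6g7 NK cells. Klra3 read 9.42 in those NK cells and Tyrobp 11.36. Ly49 genes are near copies, so the signal of one may include others. Without T cell array 1, 6 of the 21 NK genes were higher past the threshold, and 2 were without the 3 arrays with liver transcripts.

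Cytotoxic granule and death ligand genes were higher in 7 of 17 members and lower in none (median 1.0). Gzma, granzyme A, had 8.87, 8.66 and 9.71 in the infiltrate, against 5.72 and 6.70 in the T cells (difference 2.87, SE 0.45, adjusted p = 8.43e-04 by limma). Gzmb, granzyme B, had 9.07, 8.09 and 9.72 in the infiltrate, against 5.92 and 6.52 in the T cells (difference 2.74, SE 0.42, adjusted p = 7.72e-04 by limma). T cell array 2 was the higher of its group for both, and the groups did not overlap. Prf1, perforin, had 7.03, 6.22 and 6.15 in the infiltrate and 5.06 and 5.36 in the T cells (difference 1.25, SE 0.26, adjusted p = 0.0106 by limma). Serpinb9, an inhibitor of granzyme B, was higher by 1.97 (SE 0.39, adjusted p = 0.00748 by limma) and Ctsw, a cathepsin of cytotoxic cells, by 1.75 (SE 0.33, adjusted p = 0.00583 by limma). Fasl, the Fas ligand, was at 6.35, 6.83 and 7.17 in the infiltrate and 5.34 and 5.90 in the T cells but did not pass (difference 1.16, SE 0.34, adjusted p = 0.0853 by limma).

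Leaving out T cell array 1 left 1 of the 17 cytotoxic genes higher past the threshold, as did leaving out the 3 arrays with liver transcripts. Without that array Gzmb kept its call (adjusted p = 0.0408 by limma), while Gzma (0.0543), Ctsw (0.165), Prf1 (0.215) and Serpinb9 (0.232) did not. Prf1 was also at 0.05 without infiltrate array 1.

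The remaining lymphocyte genes outside the CD4 lineage were few. Trgv1, a gamma T cell receptor segment, had 9.98, 9.73 and 9.69 in the infiltrate, against 5.50 and 5.94 in the T cells. The infiltrate arrays lay close together and far above the T cells (difference 4.08, SE 0.31, at least 17.0-fold, adjusted p = 2.4e-07 by limma). Trgv4, another gamma segment, had 5.70, 5.79 and 4.58 in the infiltrate, against 3.93 and 3.86 in the T cells (difference 1.46, SE 0.29, adjusted p = 0.00793 by limma), and was lost without T cell array 1 (0.103) or T cell array 2 (0.0603), adjusted p by limma. Every value of Trgv4 lay below 6.37, in the range of absent transcripts. Gamma segments resemble each other, and rearranged gamma genes can also be transcribed in other T cells. Cd8a, the CD8 alpha chain, had 6.70, 6.73 and 7.23 in the infiltrate, against 5.78 and 5.52 in the T cells, without overlap, but did not pass (difference 1.24, SE 0.35, adjusted p = 0.0736 by limma). The fourth measured member, Cd8b1, was lower at -1.10 without passing.

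Among 25 chemokines, 5 were higher and none lower past the threshold (median 0.16). Ccl5, which draws T cells and monocytes, had 10.21, 10.83 and 10.92 in the infiltrate, against 5.54 and 8.27 in the T cells. The T cell arrays were far from each other, and T cell array 2 was the nearer to the infiltrate (difference 3.75, SE 0.73, adjusted p = 0.00669 by limma). With T cell array 1 left out the difference was 2.38 and did not pass (adjusted p = 0.265 by limma). Cxcl9, an interferon-gamma-induced ligand of CXCR3, had 7.72, 7.41 and 6.66 in the infiltrate, against 3.89 and 3.83 in the T cells. Its groups were well apart (difference 3.40, SE 0.28, at least 10.5-fold, adjusted p = 4.93e-07 by limma) and it passed in every alternative that tested it. Ccl9 (2.57, SE 0.62, adjusted p = 0.0295 by limma) and Ccl3 (1.44, SE 0.28, adjusted p = 0.00678 by limma), both ligands of CCR1, lost their calls without T cell array 1 (0.106 and 0.265), adjusted p by limma. Ccl9 lost it without any 1 of the other arrays too (adjusted p of 0.0709 to 0.187 by limma).

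Of 14 chemokine receptors 3 were higher (median 0.11). Besides Ccr2 these were Ccr6 (1.62, SE 0.32, adjusted p = 0.00787 by limma), a receptor of B cells and some T cells, and Ccr1 (1.21, SE 0.24, adjusted p = 0.00882 by limma). All values of Ccr1 lay in the range of absent transcripts. Ccr6 lost its call without T cell array 1 (0.230), and Ccr1 without that array (0.233) or infiltrate array 1 (0.0509), adjusted p by limma. In a fit lacking T cell array 1, 1 of the 25 chemokines and 1 of the 14 receptors were higher past the threshold, and without the 3 arrays with liver transcripts 2 and 1 were.

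Genes of the IL-1 axis and innate inflammation were higher in 6 of 24 members and lower in none (median 0.34). Il1rn, the antagonist of the IL-1 receptor, had 8.57, 7.62 and 7.19 in the infiltrate, against 3.88 and 3.84 in the T cells. No infiltrate array came near the T cells, whose values were those of an absent transcript (difference 3.93, SE 0.38, at least 15.3-fold, adjusted p = 4.67e-06 by limma). Il1b, the cytokine IL-1 beta, had 7.05, 6.92 and 6.07 in the infiltrate and 4.92 and 5.05 in the T cells (difference 1.70, SE 0.37, adjusted p = 0.0152 by limma). Casp1, the protease that matures IL-1 beta, had 6.15, 5.77 and 6.22 in the infiltrate and 3.65 and 3.95 in the T cells (difference 2.25, SE 0.24, adjusted p = 1.22e-05 by limma). Il1rn and Casp1 passed in every alternative run. Every value of Casp1 lay below 6.37, in the range of absent transcripts.

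Saa3, an acute phase protein, differed most within the infiltrate, with 8.91, 6.94 and 6.22, against 5.17 and 4.65 in the T cells (difference 2.45, SE 0.62, adjusted p = 0.0409 by limma). Acod1, the itaconate-making enzyme of activated macrophages, followed the same order with 6.18, 5.21 and 4.42 in the infiltrate, against 3.22 and 3.64 in the T cells (difference 1.84, SE 0.37, adjusted p = 0.00918 by limma). All values of Acod1 lay in the range of absent transcripts, and a further probe set of it was at 0.07. Without T cell array 1, Il1b, Saa3 and Acod1 all lost their calls (each at adjusted p = 0.201 by limma). Il1b and Saa3 also lost theirs without infiltrate array 1 (0.0779 and 0.152), infiltrate array 2 (0.0612 and 0.0584) or T cell array 2 (0.0685 and 0.182), adjusted p by limma. With T cell array 1 left out, 2 of the 24 genes were higher past the threshold. The same number was higher without the 3 arrays with liver transcripts.

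Interferon-gamma-induced genes were higher in 3 of 19 members, Cxcl9, Casp1 and the guanylate-binding protein Gbp2b (1.35, SE 0.33, adjusted p = 0.0355 by limma), with a median of 0.12. Gbp2b lost its call without T cell array 1 (0.363), T cell array 2 (0.0778) or infiltrate array 1 (0.0618), adjusted p by limma. Ifng itself, the gene of interferon gamma, had 5.68, 6.33 and 6.48 in the infiltrate and 3.77 and 5.52 in the T cells. T cell array 2 was close to infiltrate array 1, and the difference of 1.52 (SE 0.45, adjusted p = 0.0971 by limma) did not pass. None of 19 type I interferon-induced genes (median -0.14), of 14 MHC class I and immunoproteasome genes (median 0.11) or of 15 helper cytokines (median 0.02) passed. The mean level of the type I list was 7.25 in T cell array 1 and 6.24 in T cell array 2. The infiltrate arrays, at 6.57 to 6.62, lay between them. Complement genes were higher in 1 of 12 (C1qb, median 0.32). Lysosome and phagocytosis genes were higher in 2 of 23 (median 0.50), Psap by 1.75 (SE 0.34, adjusted p = 0.00616 by limma) and Ctsc, which activates granzymes, by 1.57 (SE 0.33, adjusted p = 0.0103 by limma). Further probe sets, at 0.52 and -0.11 for Psap and 1.70 and 0.42 for Ctsc, did not pass. Both calls were lost without T cell array 1, at adjusted p of 0.170 and 0.0898 by limma, and that of Ctsc also without T cell array 2 (0.0849).

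**Figure D3:**
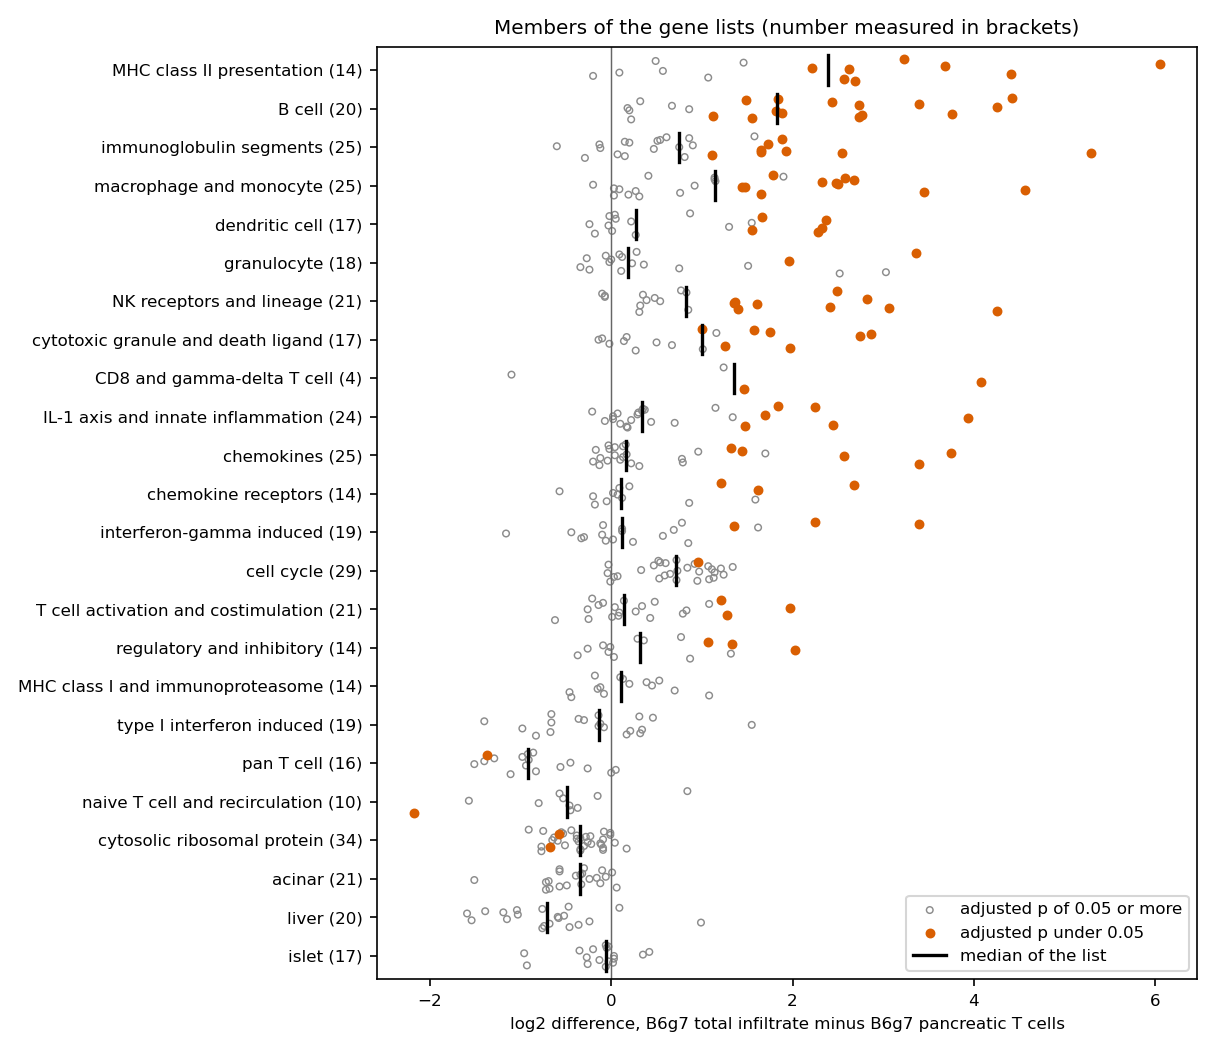
Log2 difference, B6g7 infiltrate minus B6g7 pancreatic T cells, for each member of 24 gene lists, with the number measured in brackets. Orange points passed limma's test, grey circles did not, and black bars are list medians, which run from 2.39 for MHC class II presentation to -0.92 for pan T cell genes.

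T cell genes leaned to lower levels in the infiltrate, but few passed. Of 16 pan T cell genes, 14 were below 0, while 45.9% of all genes were above 0. The groups did not overlap for 12 of the 16, against 29% of all probe sets in either direction. The median was -0.92, against -0.03 over all genes. Only Cd27, a costimulatory receptor of the TNF receptor family, passed, with 6.67, 7.47 and 7.18 in the infiltrate, against 8.74 and 8.20 in the T cells (difference -1.37, SE 0.32, adjusted p = 0.0266 by limma). It lost its call without T cell array 1 (0.390), infiltrate array 1 (0.128) or infiltrate array 3 (0.0550), adjusted p by limma. A further probe set of Cd27 was at -0.40 (adjusted p = 0.642 by limma). Cd3e, a chain of the T cell receptor complex, had 6.67, 7.53 and 7.54 in the infiltrate and 7.78 and 8.53 in the T cells (difference -0.91, 95% interval -1.68 to -0.13, adjusted p = 0.278 by limma). Cd4 had 6.50, 6.78 and 6.73 in the infiltrate and 6.99 and 7.27 in the T cells (difference -0.45, 95% interval -0.98 to 0.08, adjusted p = 0.492 by limma). For both genes every infiltrate array was below both T cell arrays, by margins smaller than those of the B cell or class II genes. The mean level of the pan T cell list was 7.29 to 7.58 in the infiltrate arrays and 8.16 to 8.32 in the T cell arrays, so T cell transcripts were still plentiful in the infiltrate.

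Of 10 naive T cell and recirculation genes 1 was lower (median -0.49). Satb1, a chromatin organiser of T cells, had 6.90, 7.06 and 7.65 in the infiltrate, against 9.31 and 9.44 in the T cells, and its difference of -2.17 (SE 0.52, adjusted p = 0.0291 by limma) was the largest fall past the threshold. Its call was lost without T cell array 1 (0.212), T cell array 2 (0.127), infiltrate array 1 (0.112) or infiltrate array 2 (0.0874), adjusted p by limma. Klf2, a transcription factor of resting T cells, had 7.14, 7.45 and 7.55 in the infiltrate and 7.70 and 7.97 in the T cells, which did not pass (difference -0.46, SE 0.19, adjusted p = 0.291 by limma).

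T cell activation genes were higher in 3 of 21 members and lower in none (median 0.14). Irf4, a transcription factor of activated T cells and of B cells, had 8.34, 8.18 and 8.35 in the infiltrate and 5.91 and 6.74 in the T cells (difference 1.97, SE 0.39, adjusted p = 0.0075 by limma). Tnfrsf1b, a TNF receptor, was higher by 1.28 (SE 0.27, adjusted p = 0.0108 by limma) and the transcription factor Bhlhe40 by 1.21 (SE 0.31, adjusted p = 0.0434 by limma). None of the 3 passed without T cell array 1 (0.232, 0.0955 and 0.605), adjusted p by limma. Tnfrsf1b also lost its call without T cell array 2 (0.0875), and Bhlhe40 without infiltrate array 2 (0.131) or infiltrate array 3 (0.124), adjusted p by limma. Known markers of activated CD4 T cells did not pass and lay near 0, with Il2ra at 0.04 (95% interval -0.24 to 0.32), Tnfrsf4 at 0.08 (-0.57 to 0.73), Cd40lg at 0.14 (-0.18 to 0.47) and Ctla4 at 0.36 (-0.49 to 1.20). The adjusted p of these 4 genes ran from 0.800 to 0.961 by limma. Il2ra, Cd40lg and Ctla4 lay in the range of absent transcripts in both groups, as did Bhlhe40.

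Regulatory and inhibitory genes were higher in 3 of 14 members and lower in none (median 0.32). Itgae, the CD103 integrin chain that holds lymphocytes in epithelia, had 6.02, 5.48 and 6.14 in the infiltrate, against 4.07 and 3.63 in the T cells (difference 2.03, SE 0.27, adjusted p = 1.57e-04 by limma). It passed in every alternative that tested it, and was left out with the 40% dimmest probe sets. All 5 values of Itgae, and of Entpd1 below, were under 6.37, in the range of absent transcripts. Entpd1, the CD39 ectonucleotidase, was higher by 1.33 (SE 0.22, adjusted p = 0.00129 by limma) and Ebi3, a cytokine subunit, by 1.07 (SE 0.23, adjusted p = 0.0136 by limma). In a fit lacking T cell array 1 neither of these passed, at adjusted p of 0.0653 and 0.309 by limma. Ebi3 also lost its call without infiltrate array 1 (adjusted p = 0.0681 by limma), and a further probe set of Ebi3 was at -0.13.

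The remaining falls were smaller. Actn1, the cytoskeletal protein alpha-actinin, had 8.60, 9.42 and 8.65 in the infiltrate, against 10.29 and 10.44 in the T cells (difference -1.48, SE 0.35, adjusted p = 0.0298 by limma). Akap9, a scaffold protein of the centrosome, had 3.57, 3.52 and 3.69 in the infiltrate, against 5.81 and 4.72 in the T cells, all below the upper end for absent transcripts (difference -1.67, SE 0.32, adjusted p = 0.00557 by limma). Tspan32, a tetraspanin of blood cells, was lower by -1.31 (SE 0.33, adjusted p = 0.0380 by limma) and Flt3l, the FLT3 ligand, by -0.87 (SE 0.20, adjusted p = 0.0229 by limma). The predicted genes Gm11346 and Gm15772 were lower by -1.87 (SE 0.39) and -1.11 (SE 0.29), and Abhd8, Tnnt1, Mfhas1, Phpt1, 2510002D24Rik, Sprr2k and Atp5g2 by -1.01 to -0.76. Another probe set of Tnnt1 was at 0.00, of Atp5g2 at -0.27 and of Abhd8 at -0.80, none past the threshold. Those of Actn1 were at -1.87, which passed, and -0.17, which did not. Of the 15 largest falls, Tnnt1 alone passed without T cell array 1, while 18 of the 20 largest rises did, all but Lyz2 and Ccl5. Without the 3 arrays with liver transcripts the same 1 of 15 falls passed, and 15 of 20 rises.

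Cell cycle genes passed in 1 of 29 members, Birc5, which codes for survivin, with 4.88, 4.83 and 5.20 in the infiltrate and 3.91 and 4.11 in the T cells (difference 0.96, SE 0.23, adjusted p = 0.0252 by limma). The call was lost without any 1 of 4 arrays, with infiltrate array 2 the exception. As a list 21 of the 29 had no overlap between groups, against 29% of all probe sets in either direction. Of the 29, 26 were above 0, against 45.9% of all genes, and the median was 0.72. Without T cell array 1 the median was 0.46. Cytosolic ribosomal protein genes passed in 2 of 34 members, both lower, Rps28 by -0.67 (SE 0.17, adjusted p = 0.0417 by limma) and Rpl38 by -0.58 (SE 0.15, adjusted p = 0.0434 by limma), and neither did without T cell array 1 (adjusted p of 0.337 and 0.242 by limma). Rps28 was also lost without infiltrate array 1, infiltrate array 2 or T cell array 2, and Rpl38 without any 1 array (adjusted p of 0.0856 to 0.242 by limma). A further probe set of Rpl38 was at -0.16, and those of Rps28 were at -0.76 and -0.55, none past the threshold. The list's median was -0.34 and 32 of the 34 were below 0, while 45.9% of all genes were above 0. No immediate early or stress gene of 20 passed (median 0.42).

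Tissue transcripts did not pass in either direction. None of 20 liver genes (median -0.71), 21 acinar genes (median -0.34), 17 islet genes (median -0.06), 21 stroma and matrix genes (median -0.11) or 12 endothelial genes (median -0.21) passed. The mean level of the liver list was 7.18, 6.86 and 4.42 in the infiltrate arrays and 9.21 and 4.49 in the T cell arrays, so liver transcripts varied within both groups. The acinar list had 5.41, 5.54 and 5.41 in the infiltrate and 6.51 and 5.23 in the T cells. Without T cell array 2, 4 acinar genes were lower in the infiltrate past the threshold. Of 10 erythroid and platelet genes, 1 was higher (median -0.20), Car2, a carbonic anhydrase, with 7.90, 7.64 and 7.79 in the infiltrate, against 5.12 and 5.01 in the T cells (difference 2.71, SE 0.48, adjusted p = 0.00278 by limma). Car2 also read 8.99 in B6g7 NK cells, and its adjusted p without T cell array 1 was 0.0506 by limma.

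**Figure D4:**
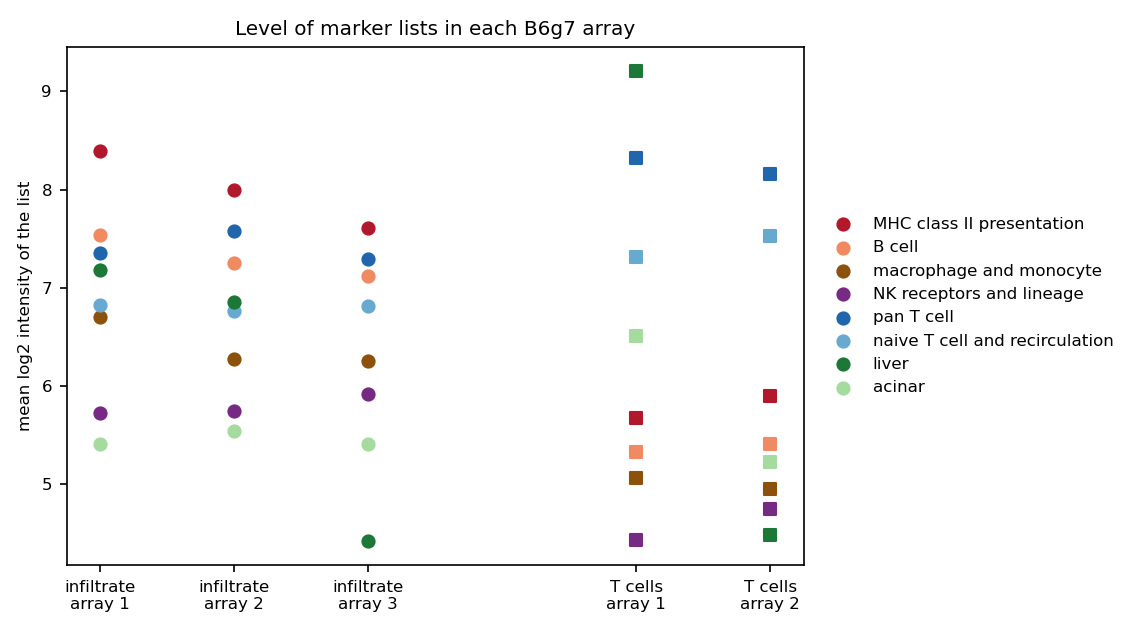
Mean log2 intensity (y axis) of 8 marker lists in each of the 5 B6g7 arrays (x axis), circles for infiltrate and squares for T cells. The class II, B cell, macrophage and NK lists are higher in all 3 infiltrate arrays and the T cell lists lower, while the liver list is high in infiltrate arrays 1 and 2 and T cell array 1.

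The genes higher in the infiltrate were set beside the other B6g7 populations, with spleen, NK and lymph node levels set against the same 2 T cell arrays. The 214 were chosen partly as low in those arrays, which favours an excess elsewhere. Of the 214, 111 read more than 1 log2 unit higher in spleen than in pancreatic T cells (51.9%, against 4.70% of all 8251 genes). In NK cells 96 did (44.9%, against 4.01% of all genes), and in at least 1 of both 153 did (71.5%, against 7.66%). In lymph node T cells, sorted by the same clonotype, 3 did (1.40%, against 0.133%). Each lymph node array shared its serial code run with a pancreatic T cell array. Likeness by cell type and by run thus cannot be told apart. A further description, with its margin chosen after seeing the data, took genes whose infiltrate mean was more than 1 above the means of spleen, NK cells and lymph node T cells as well. This held for 33 of the 214, and for 53 of all 8251 genes (0.642%). The 214 were chosen as high in the same infiltrate arrays, so a larger share among them was favoured in advance. Among these, Il1rn averaged 7.79 in the infiltrate, 3.86 in pancreatic T cells, 3.76 in spleen, 4.05 in NK cells and 3.72 in lymph node T cells. Cxcl9 averaged 7.26 in the infiltrate, 3.86 in pancreatic T cells, 3.85 in spleen, 4.27 in NK cells and 3.67 in lymph node T cells. Both genes were thus at the level of absent transcripts in all 4 other B6g7 populations. In NOD infiltrate they averaged 7.79 (Il1rn) and 6.76 (Cxcl9), against 4.02 and 4.06 in NOD pancreatic T cells. For 27 of the 33 genes the NOD infiltrate was more than 1 above the NOD T cells. Trgv1, Mpeg1, Ccl9, Saa3, Cd68, Itgae, Fpr2, Acod1, Il1b and Gbp2b also belonged to the 33. Spleen RNA had 1 round of amplification, so levels there are compared across different preparations.

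On NOD the same comparison, infiltrate minus pancreatic T cells, uses 6 other arrays. Of the 214 genes higher on B6g7, 208 were above 0 on NOD (97.2%, against 49.6% of all genes, median 1.42), and of the 25 lower ones 23 were below 0 (median -0.38). H2-Aa differed by 6.05 on each background, and Igkv6-23 by 5.29 on B6g7 and 5.45 on NOD. The T cell levels of both genes were in the range of absent transcripts on both backgrounds, so these differences are lower bounds and their likeness is not measured. The test of the difference between the 2 backgrounds passed for 2 of 12422 probe sets (0.0161%). Trgv1 had 9.98, 9.73 and 9.69 in B6g7 infiltrate against 5.50 and 5.94 in B6g7 T cells, and 7.52, 7.50 and 7.31 in NOD infiltrate against 5.80, 6.79 and 6.09 in NOD T cells. The infiltrate excess was 4.08 on B6g7 and 1.22 on NOD, a difference of 2.87 (SE 0.42, adjusted p = 0.0271 by limma). Itgae had 6.02, 5.48 and 6.14 in B6g7 infiltrate against 4.07 and 3.63 in B6g7 T cells, and 4.46, 4.22 and 4.38 in NOD infiltrate against 5.39, 4.49 and 4.16 in NOD T cells. The values of infiltrate and T cells overlapped on NOD only, with differences of 2.03 on B6g7 and -0.33 on NOD, 2.36 apart (SE 0.36, adjusted p = 0.0271 by limma). All 11 values of Itgae were below 6.37, in the range of absent transcripts. With T cell array 1 left out of B6g7 the adjusted p was 0.202 for Trgv1 and 0.134 for Itgae, and without T cell array 2 it was 0.108 and 0.140, by limma. Both calls were also lost without B6g7 infiltrate array 1 (0.0805 for both genes) and without any 1 NOD infiltrate array (0.0612 to 0.125), and that of Itgae without B6g7 infiltrate array 3 (0.0621). The recorded use of RMA runs oppositely on the 2 backgrounds, so it cannot be told apart from background here.

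**Figure D5:**
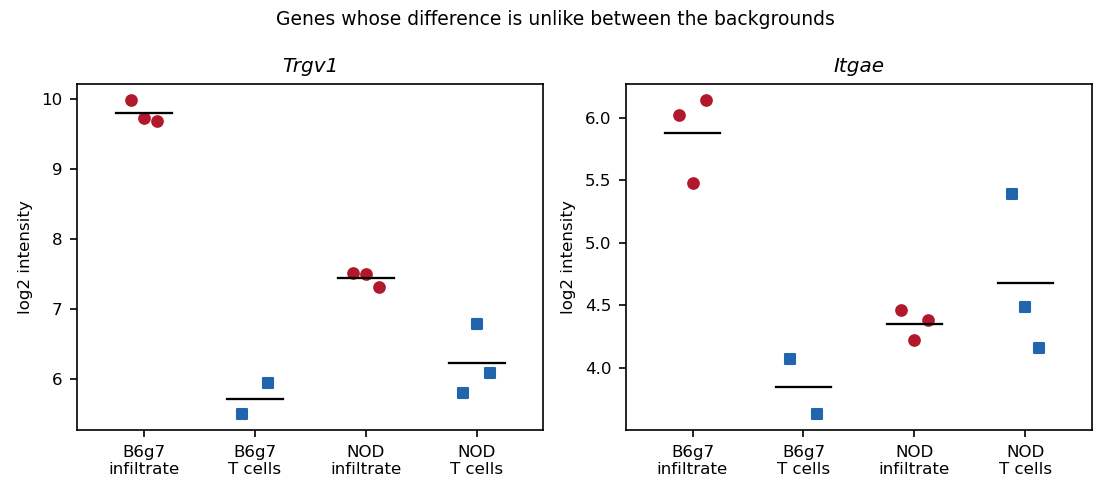
Log2 intensity of Trgv1 (left) and Itgae (right) in each array, with bars at the group means. In B6g7 mice the infiltrate exceeds the T cells by 4.08 for Trgv1 and 2.03 for Itgae, and in NOD mice by 1.22 and -0.33.

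Further genes with small unadjusted p for that difference did not pass and are given as values. Klrg1 was 3.06 higher in the infiltrate on B6g7 and 0.50 on NOD (difference 2.56, adjusted p = 0.124 by limma), and Ccr2 2.68 and 0.81 (difference 1.88, adjusted p = 0.124 by limma). Cd72, a receptor of B cells, was 2.73 on B6g7 and -0.06 on NOD (difference 2.79, adjusted p = 0.124 by limma). Its level in spleen was 8.98 on B6g7 and 3.38 on NOD, so the probe set read as absent in NOD spleen as well. In the other direction Ifi202b (-1.40, adjusted p = 0.0633 by limma), Adamdec1 (-1.38, adjusted p = 0.276 by limma) and 2810025M15Rik (-1.28, adjusted p = 0.343 by limma) had a larger excess on NOD, while Akap9 (-1.61, adjusted p = 0.848 by limma) and Klf2 (-0.98, adjusted p = 0.785 by limma) were lower on B6g7. The infiltrate and T cell means of Ifi202b and Adamdec1 lay below 6.37 on both backgrounds, in the range of absent transcripts.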

How the data were processed

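Gene expression was measured on 1-colour arrays with 12488 probe sets, in 24 samples of 10 groups. The deposited values are linear intensity per probe set. Per the submitters' processing notes RMA was used on 11 arrays, and its version and the steps for the other 13 are not given in the sources used here. Median intensity per array was 35.1 to 39.1 and the lowest value 5.70, so log2 was taken with no pseudocount and no further normalization.

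After 66 control probe sets were left out, limma 3.58.1 (R 4.3.3) fitted the 10 group means over all arrays (14 residual degrees of freedom), with eBayes and Benjamini-Hochberg adjustment over 12422 probe sets and a threshold of 0.05. The contrast was B6g7 infiltrate minus B6g7 pancreatic T cells, and a second contrast took its difference from the NOD counterpart. The procedure was tested on simulated data. Platform annotation gave 1 gene to 10833 probe sets, several to 396 and none to 1193, and symbols of 10817 were updated by Entrez identifier from RefSeq tables. Each of 8251 genes was read by the probe set whose mean across the 24 arrays was highest.

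Named were the 20 largest rises and 15 largest falls among genes past the threshold without overlap, up to 4 passing genes with the largest changes per list, a panel of markers, and the 5 genes each way with the smallest p between backgrounds. The comparison, its members and the 34 gene lists were chosen with earlier results of these data known, while the labels put each array in its group. Alternatives changed the normalization, filter, prior, weights, covariates, blocks or arrays used. Figures were drawn with matplotlib 3.10.9.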

Additional observations from a re-analysis of the deposited data

Results flagged for a closer look

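The excess of infiltrate over pancreatic T cells differed between the 2 backgrounds for 2 genes, by limma's test of the difference itself. For Trgv1 the excess was 2.87 log2 units larger on B6g7 than on NOD (SE 0.42, adjusted p = 0.0271 by limma), and all 3 B6g7 infiltrate arrays were above all 3 NOD ones. For Itgae it was 2.36 larger (SE 0.36, adjusted p = 0.0271 by limma), with all 3 B6g7 infiltrate arrays again above all 3 NOD ones. All 11 Itgae values, 3.63 to 6.14, lay below the 6.37 taken as the upper end for absent transcripts. Over the alternatives the difference ran from 2.54 to 3.09 for Trgv1 and from 1.84 to 2.84 for Itgae. The adjusted p ran from 0.0023 to 1 for Trgv1 and from 0.00217 to 0.874 for Itgae, by limma.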

How the results depend on the processing

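All 337 probe sets past the threshold kept their direction in every alternative that tested them. Where the groups do not overlap, leaving out arrays cannot change the direction, and several other alternatives leave the differences as they are. The number of calls moved, and the cause was not tested. With only the compared groups in the fit, 176 passed (168 higher, 8 lower), and the difference between backgrounds passed for 0. There 39 of the 85 passing named genes lost their calls, and 19 of the 20 largest rises but 1 of the 15 largest falls passed. Without the 3 arrays with liver transcripts, chosen after seeing the data, 67 passed (64 higher, 3 lower) and 1 between backgrounds. That fit has 1 array in each B6g7 group, and leaving out 1 T cell array leaves 1 in that group, so a lone array is assumed to vary like the other groups. Without the 2 infiltrate arrays with liver transcripts, 149 passed (139 higher, 10 lower) and 0 between backgrounds. Leaving out 1 array at a time gave 102 to 303 in all, 98 to 276 higher, 4 to 64 lower and 0 to 10 between backgrounds. The extremes of 102, 98 and 4 came without T cell array 1. The 47 lower became 26 with 1 probe set per gene, 31 without the 40% dimmest probe sets, 77 with a liver covariate (chosen after seeing the data) and 87 with serial code runs as a random block. The 2 between backgrounds became 0 with array weights (422 at an unadjusted p under 0.05), 1 with quantile normalization or without the dimmest probe sets, 4 with a trended prior and 13 with the serial code block. At 0 calls with the compared groups only, 171 were under an unadjusted p of 0.05, and 452 were without the 2 infiltrate arrays. The number of list genes higher was 88, and became 58 with the compared groups only, 22 without the 3 arrays, 40 without the 2 infiltrate arrays and 36 to 84 with 1 array left out. The 4 list genes lower became 1 with array weights, 2 with the compared groups only or a trended prior, 0 without the 3 arrays, 1 without the 2 infiltrate arrays and 0 to 7 with 1 array left out. The share of calls that were higher was 86.1%, and ran from 78.5% without T cell array 2 to 96.1% without T cell array 1. A fit with the replicate block called 287, of which 251 belonged to the 337, with 26 lower, 8 between backgrounds and 1 list gene lower. Deviations of same-numbered arrays correlated at 0.441 and -0.236, with mirrored values against the other T cell array, since that group has 2. The labels tie the arrays by number only, although both arrays numbered 1 are also from mice aged 25 days and hold albumin transcripts.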
